A study of Mus musculus with 13 samples.

Results

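The genes described here are 10 mouse genes that earlier work reported as targets of the microRNA family miR-302: Cdkn1a, Cdk2, Rbl2, Ccnd1, Ccnd2, Lats2, Akt1, Rhoc, Nr2f2 and Tob2. They were taken by their names in the array files, out of 36163 different names, and 14 of the 55681 probes on the array carry them. Each probe was read separately, since the 3 probes of Cdkn1a disagree. All 14 passed the filter on dim signals, which asked for a call of well above background from 2 or more of the 13 arrays and left 35179 probes to test.

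The arrays hold RNA of colorectal tissue from CPC-Apc mice, a model of spontaneous colorectal cancer. Their genotype, CDX2P-NLS Cre;Apc+/loxP, lets a Cre recombinase under the CDX2 promoter remove 1 allele of the Wnt pathway inhibitor Apc in the cells that express it, and all 4 groups share it. Tumors of microRNA mice (n = 2) and normal tissue of microRNA mice (n = 2) came from animals given miR-369 (-3p and -5p), miR-200c and the miR-302 members -a to -d at 25 µg each, carried by super carbonate apatite through the tail vein. They had 24 injections, 3 per week from 8 weeks of age. Tumors of control mice (n = 7) and normal tissue of control mice (n = 2) are named only as CPC-Apc in their titles, with a description that reads NC or NC-P; they were taken as the mice that the protocol says received negative control miRNA on the same schedule. The combination was given as a whole, so nothing here separates miR-302 from the other microRNAs, and the labels do not tie samples to animals. Statistical tests therefore measure the spread between samples, some of which may share an animal. Each file name carries a number whose meaning the labels do not give. Control tumors 1 and 2 share 5, control tumors 4 to 7 share 6, and control tumor 3 shares 10 with control normal tissue 2. In microRNA mice, tumor and normal tissue share 8 for replicate 1 and 2 for replicate 2. The consensus correlation within a number was 0.357 over the tested probes.

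MicroRNAs pair through their seed, the bases 2 to 8 from the 5′ end, with matching sites mostly in the 3′ untranslated part of a messenger RNA, and lower its stability or its translation. The miR-302 family is abundant in pluripotent stem cells, where it is known for speeding the passage from G1 into S phase by holding down inhibitors such as Cdkn1a, Rbl2 and Lats2, while in human cells cyclin D and Cdk2 are also reported targets. In the colon, D cyclins with their kinases drive crypt cells into the cycle, and Cdkn1a (p21) holds differentiating cells out of it. The reports behind this list come largely from human and mouse stem cells and human cancer cell lines, not from colorectal tissue.

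Mature mouse sequences under the names of the injected microRNAs are shown, because seeds decide which sites a microRNA can pair with. For miR-200c and the miR-302 members the -3p strand was taken. The sequences are RefSeq entries on GRCm38.p6, 5′ to 3′, with bases 2 to 8 in capitals. The table used held no entry for miR-302a-3p. The first 3 are the miR-302 members, of which miR-302b-3p and miR-302d-3p share the seed AAGUGCU.
mmu-miR-302b-3p: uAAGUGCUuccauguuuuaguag
mmu-miR-302c-3p: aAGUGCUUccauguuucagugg
mmu-miR-302d-3p: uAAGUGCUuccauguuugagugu
mmu-miR-200c-3p: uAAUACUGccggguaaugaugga
mmu-miR-369-3p: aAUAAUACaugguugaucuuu
mmu-miR-369-5p: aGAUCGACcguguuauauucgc
The entry of miR-302c-3p starts 1 base further in than its relatives, so that its bases 2 to 8 read AGUGCUU. The miR-302 entries lie on chromosome 3 between 127545275 and 127545687 on the plus strand, miR-200c-3p on chromosome 6 from 124718324 to 124718346 on the minus strand, and both miR-369 strands on chromosome 12 between 109743431 and 109743486 on the plus strand.

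The probes, each of which reads a short stretch of a transcript, were searched for the letters that pair with these seeds. The match of the shared miR-302 seed is AGCACTT, and 1 of the 14 probes holds it, the Rhoc probe A_55_P1979684. The site is shown within 30 bases of that probe on mm9, with the match in capitals.
Rhoc, chr3:104597233-104597262, plus strand: ccccatattacacaccAGCACTTtatatat
The match lies at 104597249 to 104597255. In all, 265 of 55681 probes (0.476%) hold these letters in the sense direction, and 620 (1.11%) on either strand. The other motifs searched were AAGCACT for miR-302c-3p (0.521% of probes), CAGTATT for miR-200c-3p (0.515%), GTATTAT for miR-369-3p (0.304%) and GTCGATC for miR-369-5p (0.0323%), and no member probe held any of them on either strand. Probes cover a small part of each transcript, and the untranslated parts beyond them were not used here.

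Levels below are log2 of the processed signal minus log2 of the 75th percentile of the same array, so that 0 is the brightness of that percentile. Between 50.7% and 57.0% of all probes were well above background on an array. The 75th percentile itself was 415 to 740 on the 9 tumor arrays, against 214 to 320 on the 4 normal arrays, and scaling removes this difference. The arrays were printed on 2 slides: slide 2 held tumor 1 and normal tissue 1 of microRNA mice, tumor 3 of control mice and both normal tissues of control mice, and slide 1 held the other 8. No control normal tissue was on slide 1. Over both treatments, a value on slide 1 alone is therefore tumor 2 minus normal tissue 2 of microRNA mice, 1 array each. Values within a slide are given for the probes called over both treatments, for Cdkn1a A_55_P1976204 and for Lats2 A_55_P2002351. They are not given for the tumor differences of the other probes. Among the microRNA effects they are given only for Cdkn1a A_55_P1976204. Markers of gut epithelium were present in all groups, with a mean level of 5.63 to 5.99 in tumors and 6.24 to 6.47 in normal tissue of microRNA mice, and of 5.18 to 6.04 in tumors and 5.85 to 6.11 in normal tissue of control mice.

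**Figure D1:**
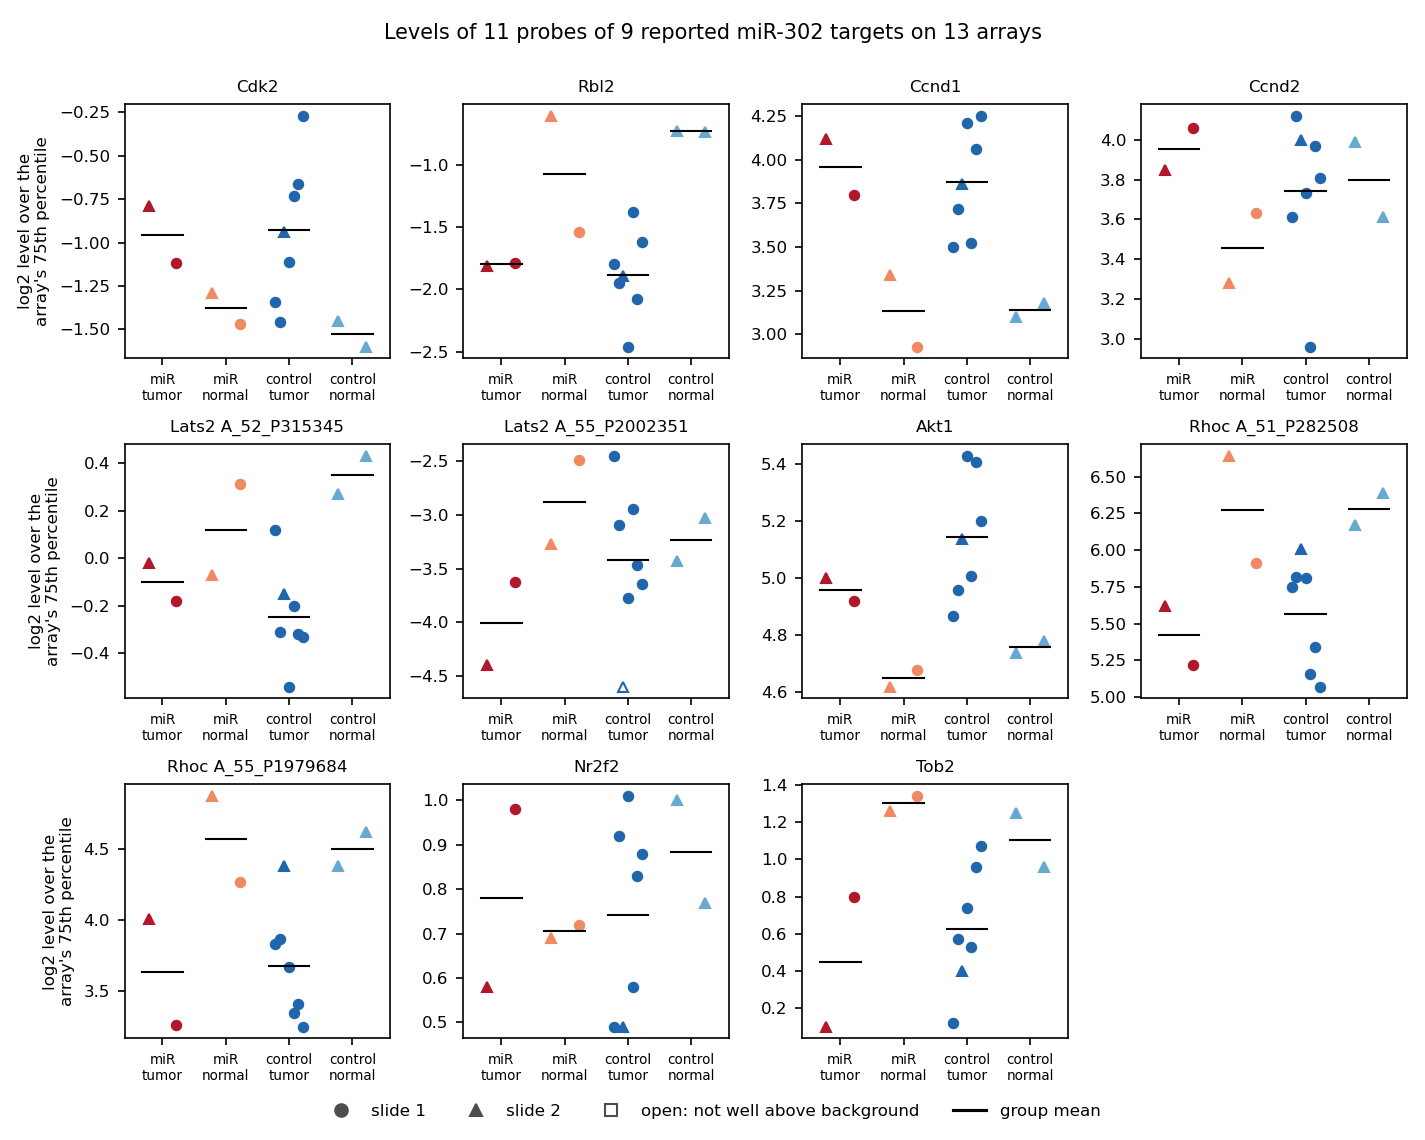
Levels of the 11 probes of the genes other than Cdkn1a on each of the 13 arrays (y axis: log2 signal over the array's 75th percentile, with a scale of its own in each panel; x axis: the 4 groups). Circles are arrays of slide 1, triangles arrays of slide 2, open symbols are not well above background, and lines are group means. For Ccnd1 and Akt1 every tumor lies above every normal tissue, while Rbl2, Tob2 and both Rhoc probes lie mostly lower in tumors.

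The first comparison asks how these genes differ between tumors and normal tissue. After scaling, tumors had higher levels of the cyclin Ccnd1 and lower levels of the cell cycle brake Rbl2. Levels were also lower for the GTPase gene Rhoc and the antiproliferative gene Tob2. Of 26 alternative fits, the Rhoc probes A_51_P282508 and A_55_P1979684 passed the test below in 14 and 18, and Tob2 in 12. The cell cycle brake Cdkn1a was lower on its probe A_51_P363947, while A_55_P1976204 (0.47) and A_55_P1986282 (-0.06) did not pass. Over both treatments, 6 of the 14 probes passed the test (limma, Benjamini-Hochberg adjusted p under 0.05 over all 35179 probes), against 29.8% of all probes tested. Of these, 1 rose, with 11.7% of all probes rising, and 5 fell, with 18.1% of all probes falling. At an unadjusted p under 0.05 the counts were 9 of 14 and 42.9%. The median log2 difference of the 14 probes was -0.26, beside -0.08 for all probes. The shares of members that passed thus lay within a few probes of those of the whole array. The directions and calls are relative to the scaling. Without scaling between arrays the median of all probes was 0.91, and of the 6 probes Ccnd1 alone kept its call (1.76). On that scale Cdkn1a A_51_P363947 was at -0.03 (adjusted p = 0.933), and Rbl2 (0.01), Tob2 (0.37) and the Rhoc probes A_51_P282508 (0.23) and A_55_P1979684 (0.13) had positive values.

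Ccnd1 encodes cyclin D1, which activates Cdk4 and Cdk6 in G1 and is a known Wnt target. Its probe A_66_P111562 (chromosome 7, 152116202 to 152116261, minus strand, mm9) read 4.12 and 3.80 in tumors and 3.34 and 2.93 in normal tissue of microRNA mice. In control mice the 7 tumors had a lowest, median and highest level of 3.50, 3.86 and 4.25, against 3.1 and 3.18 in normal tissue. Every tumor was above every normal tissue. Over both treatments the mean was 3.89 ± 0.28 (SD, n = 9) in tumors and 3.14 ± 0.17 (SD, n = 4) in normal tissue, a log2 difference of 0.77 (SE 0.19, adjusted p = 0.0106), or 1.70-fold. Fitted with slide blocks the difference was 0.86 (adjusted p = 0.0105). On slide 1 alone, from 1 tumor and 1 normal tissue of microRNA mice, it was 0.87, and on slide 2 alone it was 0.74. The Ccnd1 call was lost on each slide alone, and 23 of 26 alternative fits kept it.

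Ccnd2 encodes the related cyclin D2 and did not follow Ccnd1. Its levels (A_52_P53906, chromosome 6, 127098696 to 127098755, minus strand) were 3.85 and 4.06 in tumors and 3.28 and 3.63 in normal tissue of microRNA mice, and 2.96, 3.81 and 4.12 as lowest, median and highest in control tumors against 3.99 and 3.61 in control normal tissue. Control tumor 5, at 2.96, was the lowest of all arrays, with the next control tumor at 3.61. The difference over both treatments was 0.16 (SE 0.23, adjusted p = 0.615), with a 95% interval of -0.33 to 0.65.

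Cdk2, the kinase that works with cyclin E at the start of S phase, had a higher mean in tumors without passing the test. Its probe A_55_P2011852 (chromosome 10, 128135658 to 128135717, minus strand) read -0.79 and -1.12 in tumors and -1.29 and -1.47 in normal tissue of microRNA mice. Control tumors ran from -1.46 through a median of -0.94 to -0.27, against -1.45 and -1.60 in control normal tissue. The difference was 0.53 (SE 0.22, adjusted p = 0.0809), and control tumors 1 and 2 lay among the normal tissues.

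Rbl2 encodes p130, a relative of the retinoblastoma protein that represses E2F target genes in resting cells. Its probe A_52_P117325 (chromosome 8, 93647120 to 93647179, plus strand) read -1.81 and -1.79 in tumors and -0.61 and -1.54 in normal tissue of microRNA mice. The 7 control tumors had a lowest, median and highest level of -2.46, -1.89 and -1.38, against -0.73 and -0.74 in control normal tissue. Normal tissue 2 of microRNA mice lay within the range of the tumors, and the other 3 normal tissues lay above it. The log2 difference was -0.98 (SE 0.23, adjusted p = 0.0084), or 0.507 times the level in normal tissue. It was -0.83 with slide blocks (adjusted p = 0.024), -0.25 on slide 1 alone (adjusted p = 0.861) and -1.17 on slide 2 alone (adjusted p = 0.0302). The call was lost without control normal tissue 2 and control tumor 3 together (-0.92, adjusted p = 0.0512). Rbl2 was also the only member to pass in control mice alone, where 18.5% of all probes did, with -1.15 (SE 0.29, adjusted p = 0.0235). That call was lost with slide blocks (-0.94, adjusted p = 0.108) and without either control normal tissue (-1.14 without replicate 1 and -1.15 without replicate 2).

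The 3 probes of Cdkn1a, whose protein p21 inhibits cyclin-dependent kinases, did not read alike. Only the brightest was well above background on all 13 arrays. The brightest, A_51_P363947 (chromosome 17, 29237377 to 29237436, plus strand), is printed as 10 spots per array and reads the 3′-most stretch of the 3. It had 2.08 and 2.04 in tumors and 3.55 and 3.53 in normal tissue of microRNA mice, and a lowest, median and highest level of 1.76, 2.41 and 2.80 in control tumors against 2.78 and 3.47 in control normal tissue. Tumors and normal tissue touched only at control tumor 3 (2.80) and control normal tissue 1 (2.78). Over both treatments it fell by 1.03 on the log2 scale (SE 0.23, adjusted p = 0.00769), to 0.491 times the level in normal tissue, and the difference was -1.01 with slide blocks (adjusted p = 0.0161), -1.49 on slide 1 alone and -0.81 on slide 2 alone (adjusted p = 0.355 and 0.203). Between its spots on an array the coefficient of variation had a median of 3.69%.

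In microRNA mice alone Cdkn1a A_51_P363947 was the only member to pass, with -1.48 (SE 0.34, adjusted p = 0.0479), where 2.37% of all probes passed. The value was nearly the same on both slides, -1.49 on slide 1 (the same 2 arrays as above) and -1.47 on slide 2, with 1 tumor and 1 normal tissue on each. In control mice it was -0.73 (adjusted p = 0.0804). The difference between the tumor effects, -0.75 (SE 0.44, adjusted p = 0.821), did not pass. The adjusted p in microRNA mice lay close to the threshold, and it was no longer under it when only these 4 arrays entered the fit (0.0852). Of 27 alternative fits 10 kept the call, and their adjusted p-values ran from 0.0152 to 0.376.

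The second Cdkn1a probe, A_55_P1976204, lies 2078 bases nearer the start of the gene (chromosome 17, 29235299 to 29235358) and is assigned to another transcript in the files. It was dim, well above background on 9 of 13 arrays. It was not so on either control normal tissue, nor on tumor 1 and normal tissue 1 of microRNA mice. Its levels were -5.63 and -3.41 in tumors and -3.84 and -1.66 in normal tissue of microRNA mice, and -4.57, -2.47 and -1.34 as lowest, median and highest in control tumors against -4.13 and -4.93 in control normal tissue. These levels followed the slide. All 5 arrays of slide 2 lay between -5.63 and -3.84, and all 8 arrays of slide 1 between -3.41 and -1.34. Slide 2 was lower than slide 1 within the groups by 2.24 on the log2 scale (slide 2 minus slide 1: -2.24, SE 0.36, adjusted p = 0.00305), in a test chosen after the data were seen. In that test 3 of the 14 probes and 19% of all probes passed, and 6.5% of all probes lay wholly lower on slide 2 and 11.7% did not overlap between the slides in either direction.

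Set against this, the tumor difference of A_55_P1976204 depends on which slides are compared. In control mice it was 1.91 (SE 0.81, 95% interval 0.14 to 3.68, adjusted p = 0.11). With control normal tissue raised to the dimmest signal still well above background on its arrays, the means differed 3.04-fold across the slides. That bound leaves out the spread between samples. Of the 7 control tumors 6 were on slide 1, and both normal tissues were on slide 2. With slide blocks the control difference was -0.01 (adjusted p = 0.995) and on slide 2 alone it was -0.05. In microRNA mice, with both groups on each slide, it was -1.75 on slide 1 and -1.77 as a whole (SE 1.01, adjusted p = 0.336, and 0.063 with slide blocks). On slide 2 it was -1.79, where neither array of these mice was well above background. A_55_P1976204 thus read higher in control tumors, opposite to A_51_P363947, in the fit without slide blocks, but not with them.

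The third Cdkn1a probe, A_55_P1986282, lies 9391 bases from the first (chromosome 17, 29227986 to 29228045) and was well above background on 6 of 13 arrays, on neither normal tissue of microRNA mice and on 1 of 2 in control mice. It read -4.26 and -4.46 in tumors and -4.24 and -4.33 in normal tissue of microRNA mice, and -5.79, -4.74 and -2.74 as lowest, median and highest in control tumors against -4.48 and -4.09 in control normal tissue. The control tumors alone spanned the whole range. At this brightness the difference of -0.06 (95% interval -1.06 to 0.94) gives no direction.

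**Figure D2:**
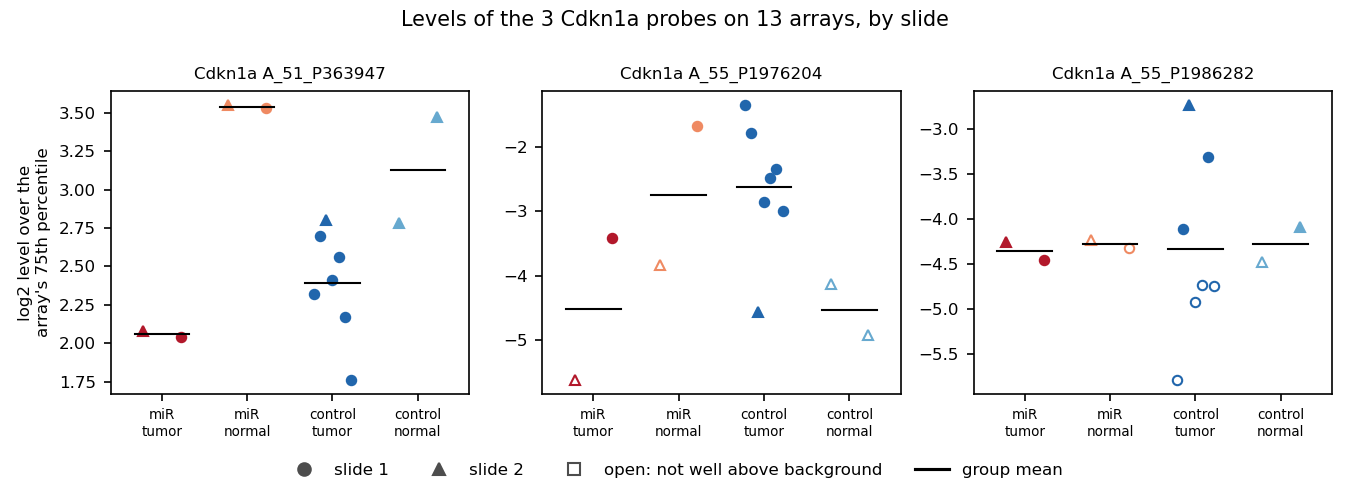
Levels of the 3 Cdkn1a probes on each of the 13 arrays (y axis: log2 signal over the array's 75th percentile; x axis: the 4 groups; circles slide 1, triangles slide 2, open symbols not well above background, lines group means). For A_51_P363947 the tumors lie low on both slides, and for A_55_P1976204 every triangle, from -5.63 to -3.84, lies below every circle, from -3.41 to -1.34.

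Among the signalling genes, Rhoc, which encodes a small GTPase of the cytoskeleton, fell on both of its probes. They start 97 bases apart in the same transcript (chromosome 3, 104597300 to 104597359 and 104597203 to 104597262, plus strand). A_51_P282508 read 5.62 and 5.22 in tumors and 6.64 and 5.91 in normal tissue of microRNA mice, and 5.07, 5.75 and 6.01 as lowest, median and highest in control tumors against 6.17 and 6.39 in control normal tissue. A_55_P1979684, which holds the seed match shown above, read 4.01 and 3.26 in tumors and 4.87 and 4.27 in normal tissue of microRNA mice, and 3.25, 3.67 and 4.38 in control tumors against 4.38 and 4.62 in control normal tissue. On both probes control tumor 3 was the highest tumor, and normal tissue 2 of microRNA mice the lowest normal tissue. The log2 differences over both treatments were -0.77 (SE 0.22, adjusted p = 0.0224) and -0.87 (SE 0.24, adjusted p = 0.0177).

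Both Rhoc calls were lost with median scaling (-0.63 and -0.72, adjusted p = 0.121 and 0.0969), and that of A_51_P282508 with quantile normalization (-0.31, adjusted p = 0.197). Both were also lost with slide blocks, at -0.56 (adjusted p = 0.0703) and -0.57 (adjusted p = 0.0502). On slide 1 alone the differences were -0.69 and -1.0 (adjusted p = 0.618 and 0.458), and on slide 2 alone they were -0.59 and -0.44 (adjusted p = 0.18 and 0.28). In control mice, where tumors and normal tissue lay mostly on different slides, the block took them to -0.25 and -0.19, against -0.71 and -0.82 without it. A_55_P1979684 was itself higher on slide 2 by 0.74 (SE 0.18, adjusted p = 0.0182), and A_51_P282508 by 0.54 (SE 0.21, adjusted p = 0.106). The calls were also lost without control normal tissue 2 (-0.74 and -0.83, adjusted p = 0.0869 and 0.0747), and without normal tissue 1 of microRNA mice (-0.65 and -0.76, adjusted p = 0.0634 and 0.0501). That of A_51_P282508 was lost too without control normal tissue 1 (-0.84, adjusted p = 0.0515), without microRNA tumor 2 (-0.70, adjusted p = 0.057) and without control normal tissue 2 and control tumor 3 together (-0.77, adjusted p = 0.0647).

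Tob2, a relative of Btg genes that slows proliferation and recruits the deadenylase machinery, fell as well. Its probe A_52_P70854 (chromosome 15, 81679488 to 81679547, minus strand) read 0.10 and 0.80 in tumors and 1.26 and 1.34 in normal tissue of microRNA mice, and 0.12, 0.57 and 1.07 as lowest, median and highest in control tumors against 1.25 and 0.96 in control normal tissue. Control tumor 7 (1.07) lay above control normal tissue 2 (0.96). The difference was -0.62 (SE 0.21, adjusted p = 0.0412), -0.81 with slide blocks (adjusted p = 0.0152), -0.54 on slide 1 alone and -0.90 on slide 2 alone (adjusted p = 0.679 and 0.0662). The Tob2 call was lost in 8 of the 13 fits that left out 1 array: without either control normal tissue, either normal tissue of microRNA mice, tumor 1 of microRNA mice, or control tumor 2, 4 or 5, with adjusted p-values of 0.0528 to 0.116. It was also lost with median scaling (-0.48, adjusted p = 0.0902), and in all 12 of 26 alternative fits kept it.

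Lats2 is the kinase of the Hippo pathway that phosphorylates and restrains Yap. Its bright probe A_52_P315345 (chromosome 14, 58308807 to 58308866, minus strand) read -0.02 and -0.18 in tumors and -0.07 and 0.31 in normal tissue of microRNA mice, and -0.54, -0.31 and 0.12 in control tumors against 0.27 and 0.43 in control normal tissue. All control tumors were below both control normal tissues, but the groups of microRNA mice overlapped. The difference over both treatments, -0.45 (SE 0.16, adjusted p = 0.0517), just missed the threshold, and Lats2 A_52_P315345 passed it in 7 of 26 alternative fits, among them normexp (adjusted p = 0.0324) and quantile normalization (0.049). The dim probe A_55_P2002351, 32418 bases away and assigned to another transcript (chromosome 14, 58341225 to 58341284), read -4.40 and -3.62 in tumors and -3.27 and -2.49 in normal tissue of microRNA mice, and -4.60, -3.47 and -2.45 in control tumors against -3.43 and -3.03 in control normal tissue. Its difference was -0.56 (SE 0.37, adjusted p = 0.268), but -1.11 with slide blocks (SE 0.28, adjusted p = 0.0134), -1.12 on slide 1 alone (adjusted p = 0.564) and -1.27 on slide 2 alone (adjusted p = 0.0364). It too was lower on slide 2 (slide 2 minus slide 1: -1.06, SE 0.30, adjusted p = 0.0325).

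Akt1 encodes a kinase that carries growth factor and insulin signals. Its probe A_55_P2066384 (chromosome 12, 113892079 to 113892138, minus strand, 2 spots) read 5.00 and 4.92 in tumors and 4.62 and 4.68 in normal tissue of microRNA mice, and 4.87, 5.14 and 5.43 in control tumors against 4.74 and 4.78 in control normal tissue. Tumors and normal tissue did not overlap, which held for 2 of the 14 probes (Ccnd1 and Akt1) and for 16.5% of all probes. The difference of 0.35 (SE 0.15, adjusted p = 0.0841) nevertheless missed the threshold, which Akt1 passed with normexp (0.52, adjusted p = 0.00444), with quantile normalization (0.69, adjusted p = 0.0111) and without scaling (1.35). Nr2f2 encodes the nuclear receptor COUP-TFII of mesenchyme and vessels. Its probe A_55_P2128283 (chromosome 7, 77496873 to 77496932, minus strand) read 0.58 and 0.98 in tumors and 0.69 and 0.72 in normal tissue of microRNA mice, and 0.49, 0.83 and 1.01 in control tumors against 1.00 and 0.77 in control normal tissue. Its groups overlapped throughout, with a difference of -0.06 (95% interval -0.40 to 0.29).

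Split by treatment, the 6 probes called over both kept their direction in each kind of mouse, with fewer calls. In microRNA mice 1 of 14 probes passed, against 2.37% of all probes, and 5 of 14 had an unadjusted p under 0.05, against 21.2%. Tumors and normal tissue did not overlap for 10 of 14 probes there, but with 2 arrays against 2 this held for 52% of all probes. In control mice 1 of 14 probes passed, against 18.5% of all probes, 7 of 14 had an unadjusted p under 0.05, against 37.1%, and 6 of 14 did not overlap, against 32.8%. For Ccnd1 the tumor difference was 0.82 in microRNA mice (adjusted p = 0.163) and 0.73 in control mice (adjusted p = 0.0588). The difference between the tumor effects passed for none of the 14 probes, with 0.256% of all probes passing. At an unadjusted p under 0.05 it counted 1 of 14, against 6.08% of all probes. That was A_55_P1976204 of Cdkn1a with -3.68 (SE 1.29, unadjusted p = 0.015, adjusted p = 0.701), which was -1.77 with slide blocks (adjusted p = 0.959).

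**Figure D3:**
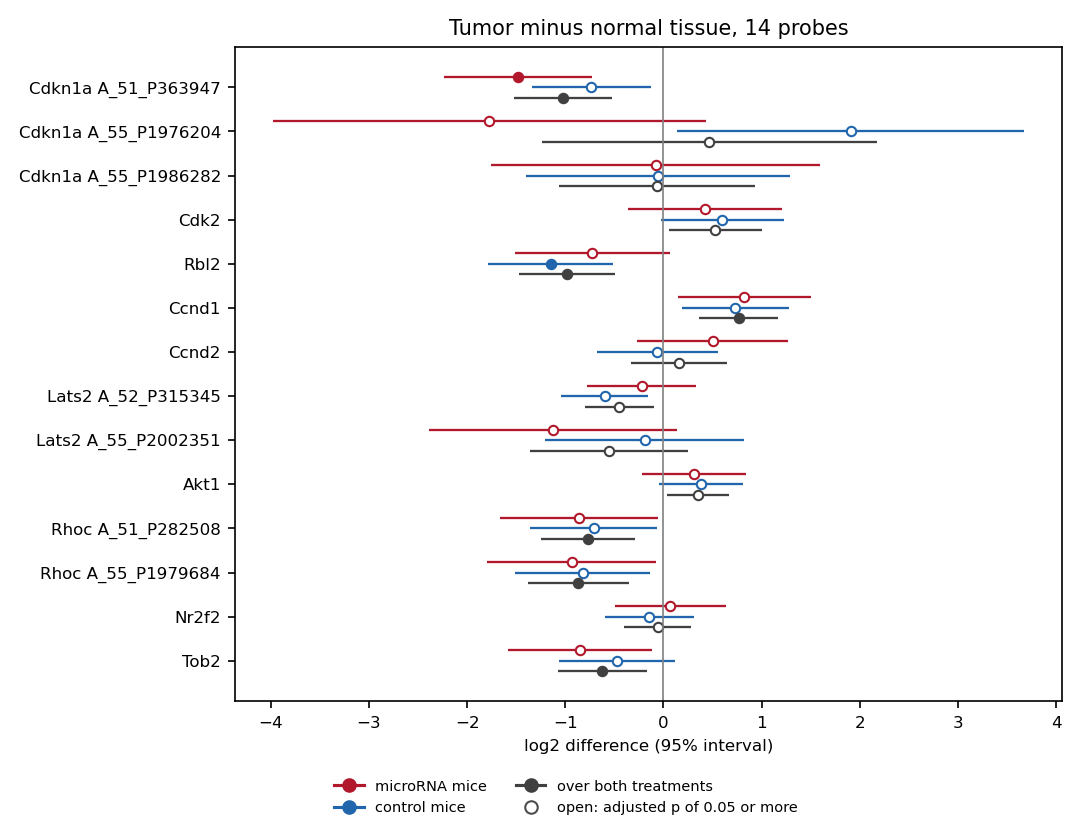
Log2 differences between tumors and normal tissue for the 14 probes (x axis, with 95% intervals from limma), from top to bottom within a probe in microRNA mice, in control mice and over both treatments. Filled symbols have an adjusted p under 0.05. Ccnd1 lies above 0 and Cdkn1a A_51_P363947, Rbl2, both Rhoc probes and Tob2 lie below 0 over both treatments, while the 2 groups of mice lie on opposite sides of 0 for Cdkn1a A_55_P1976204.

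The second comparison asks whether the microRNA combination changed the reported targets. No member passed the test in either tissue or over both. In tumors, 0 of 14 probes and 0% of all probes passed, and at an unadjusted p under 0.05 the counts were 1 of 14 and 2.13%. In normal tissue 0 of 14 passed, against 0.449% of all probes, and 0 of 14 had an unadjusted p under 0.05, against 5.51%. Over both tissues the counts were 0 of 14 and 0% after adjustment, and 0 of 14 and 2.29% before it. The member medians were -0.04 in tumors, 0.00 in normal tissue and -0.03 over both, beside 0.00, 0.06 and 0.02 for all probes.

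In tumors Ccnd1, Ccnd2, Cdk2, Rbl2 and the brightest Cdkn1a probe differed between the mice by less than the SD of the control tumors. Ccnd1 averaged 3.96 ± 0.23 in microRNA tumors (SD, n = 2) and 3.87 ± 0.31 in control tumors (SD, n = 7), a log2 difference of 0.09 with a 95% interval of -0.46 to 0.63. Rbl2 averaged -1.80 ± 0.01 and -1.88 ± 0.34 in the same groups, and differed by 0.08 (-0.55 to 0.72). For Cdk2 the difference was -0.03 (-0.66 to 0.60) and for Ccnd2 it was 0.21 (-0.40 to 0.83). The first Cdkn1a probe, A_51_P363947, averaged 2.06 ± 0.03 in microRNA tumors and 2.39 ± 0.35 in control tumors, a difference of -0.33 (-0.93 to 0.28, adjusted p = 0.999). Both microRNA tumors were within the range of the control tumors on each of these 5 probes. In normal tissue the same Cdkn1a probe lay the other way, at 3.54 ± 0.01 in microRNA mice against 3.12 ± 0.49 in control mice (SD, n = 2 each), with a difference of 0.42 (-0.33 to 1.17).

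In tumors the bright Lats2 probe, Akt1, both Rhoc probes, Nr2f2 and Tob2 also differed by less than the SD of the control tumors. On Tob2, tumor 1 of microRNA mice (0.10) lay just below the lowest control tumor (0.12). Otherwise the microRNA tumors were within the range of the control tumors on these probes. In tumors the values were 0.15 for Lats2 A_52_P315345 (95% interval -0.30 to 0.59), -0.18 for Akt1 (-0.61 to 0.24), -0.14 and -0.04 for the Rhoc probes A_51_P282508 (-0.79 to 0.50) and A_55_P1979684 (-0.73 to 0.64), 0.03 for Nr2f2 (-0.42 to 0.49) and -0.18 for Tob2 (-0.77 to 0.42). The Rhoc probe with the seed match thus differed between the mice by less than the spread between tumors. In normal tissue the values of these 6 probes ran from -0.23 for Lats2 to 0.20 for Tob2. Groups of normal tissue did not overlap for 5 of 14 probes, but this held for 39.7% of all probes with 2 arrays against 2.

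The intervals, which take the samples as independent, say how large a change in RNA level these arrays could have missed. A 2-fold change in either direction lay outside the 95% interval for 11 of 14 probes in tumors and for 11 of 14 over both tissues. The 3 exceptions were in each case the dim probes Cdkn1a A_55_P1976204 and A_55_P1986282 and Lats2 A_55_P2002351. In normal tissue, with 2 arrays a group, it lay outside for 8 of 14. For the 11 probes in tumors the lower bounds ran from -0.93 for Cdkn1a A_51_P363947 to -0.30 for Lats2 A_52_P315345, and smaller falls lay inside the intervals.

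The 1 probe with an unadjusted p under 0.05 in tumors was Cdkn1a A_55_P1976204, at -4.52 ± 1.57 in microRNA tumors against -2.62 ± 1.04 in control tumors, with a difference of -1.90 (unadjusted p = 0.0371 and adjusted p = 0.999 in limma). Here 1 of 2 microRNA tumors, not well above background, but only 1 of 7 control tumors was on slide 2. It was -1.1 with slide blocks, -1.12 on slide 1 alone and -1.05 on slide 2 alone, all with an adjusted p of 0.946 or more. In normal tissue this probe read -2.75 ± 1.54 in microRNA mice and -4.53 ± 0.57 in control mice, with 1 of 2 arrays of microRNA mice, the one on slide 1, and 0 of 2 of control mice well above background. The fitted value of 1.78 had an adjusted p of 0.954, and on slide 2 alone it was 0.69.

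**Figure D4:**
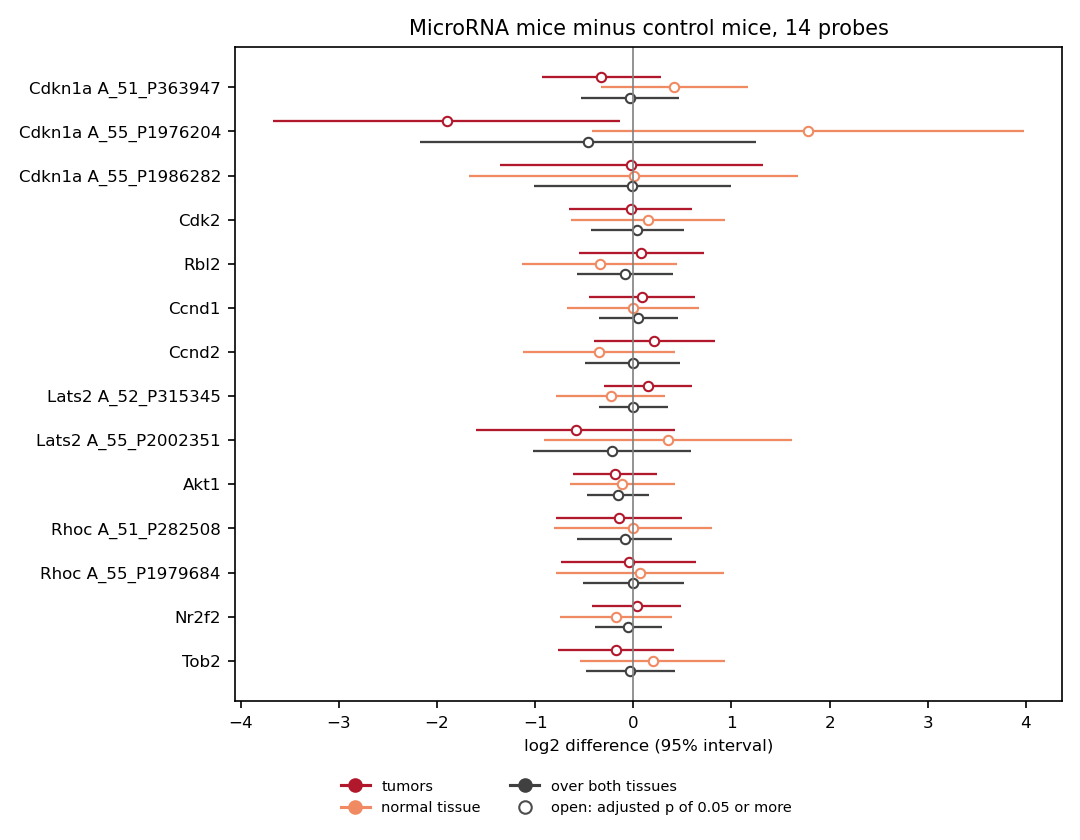
Log2 differences between microRNA mice and control mice for the 14 probes (x axis, with 95% intervals from limma), from top to bottom within a probe in tumors, in normal tissue and over both tissues. All symbols are open, since no adjusted p was under 0.05, and the widest intervals belong to the dim probes of Cdkn1a and Lats2.

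The order of the 4 group means differed between the genes. For Ccnd1 it was microRNA tumors (3.96), control tumors (3.87), and then both normal tissues at 3.14, so that groups of the same tissue lay within their spread of each other. For Cdkn1a A_51_P363947 it was normal tissue of microRNA mice (3.54) and of control mice (3.12), then tumors of control mice (2.39) and of microRNA mice (2.06). Rbl2 ran from control normal tissue (-0.74) through normal tissue of microRNA mice (-1.08) to microRNA tumors (-1.80) and control tumors (-1.88). In each of these orders the 2 treatments of a tissue were neighbours, which the choice of probes called between tumors and normal tissue favours. Ccnd2, not called, ran from microRNA tumors (3.96) through control normal tissue (3.8) and control tumors (3.74) to normal tissue of microRNA mice (3.45). No difference between the treatments of a tissue passed the test.

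Other genes of the same pathways were read with a single probe each, the brightest tested, and set beside the members over both treatments. Of all probes tested, 11.7% rose and 18.1% fell, a share that counts every probe of a gene and not only the brightest. Of 18 close relatives of the members, 4 rose and 5 fell (median -0.06). Tob1, the nearest relative of Tob2, fell by 1.28 (adjusted p = 0.0038), and Rb1, the retinoblastoma gene and relative of Rbl2, fell by 0.76 (adjusted p = 0.0048). Cdkn1c (p57), an inhibitor of the same family as Cdkn1a, rose by 1.93 (adjusted p = 0.0082). Of 23 tested G1/S regulators 6 rose and 5 fell (median 0.16), with the E2F family repressor E2f7 up by 1.15. Members of these lists thus moved in both directions.

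The Hippo list, to which Lats2 belongs, had 8 of 19 genes higher and 2 lower in tumors (median 0.52). Beside this and the following lists, 11.7% of all probes were higher and 18.1% lower. The leading Hippo members Tead2, Cyr61 and Ankrd1 rose by 3.33, 1.83 and 3.31. Cyr61 and Ankrd1 are known targets of Yap, and Tead2 is one of its partners on DNA. The PI3K and Akt list had 0 of 19 higher and 2 lower (median -0.03), with Pdpk1, the kinase that activates Akt, down by 0.45 and the transcription factor Foxo3 down by 1.27. Targets of p53, which is the classical activator of Cdkn1a, had 3 of 16 higher and 2 lower (median 0.09), with the death receptor Tnfrsf10b up by 0.74, Plk2 up by 1.1 and Fas down by 0.84. Of 11 other reported miR-302 targets, 1 rose, the TGF-β receptor Tgfbr2 by 0.59, and 2 fell, Kdm1b by 0.77 and Dazap2 by 0.47. Proliferation genes had 13 of 15 higher and 0 lower (median 0.82), with Bub1b, Top2a and Bub1 up by 1.27, 1.36 and 1.30. No gene of these 7 lists passed in any of the 3 comparisons of microRNA mice with control mice.

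Markers of cell types also differed between tumors and normal tissue, and in bulk tissue fewer cells of a type and less RNA per cell cannot be told apart. Of all probes 18.1% fell and 11.7% rose over both treatments, while each marker was read by its brightest tested probe. All 10 smooth muscle markers fell over both treatments. Their mean level was 2.44 to 2.81 in tumors and 3.69 to 3.99 in normal tissue of microRNA mice, and 0.35 to 3.1 in tumors and 4.53 to 4.90 in normal tissue of control mice. All 7 tested adipocyte markers fell, with mean levels of -4.20 to -4.16 in tumors and 1.59 to 2.26 in normal tissue of microRNA mice, and -4.50 to -0.96 in tumors and 1.06 to 1.97 in normal tissue of control mice. All 6 colonocyte markers fell, with mean levels of 3.48 to 3.91 in tumors and 6.94 to 7.00 in normal tissue of microRNA mice, and 0.99 to 5.81 in tumors and 6.30 to 7.09 in normal tissue of control mice. All 5 markers of T and NK cells and 2 of 5 of B cells fell, while 4 of 4 neutrophil, 4 of 8 fibroblast and 1 of 4 macrophage markers rose. Of the gut epithelium markers 2 of 7 fell. Endothelial markers had 2 of 10 higher and 1 lower, with mean levels of -0.78 to 0.02 over all 13 arrays. The part of these shifts in the differences of the members was not tested.

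Squamous epithelium and skeletal muscle markers set the normal tissue of control mice apart. Squamous markers had a mean level of -3.98 to -3.96 in normal tissue of microRNA mice, against -0.44 and 1.65 in normal tissue of control mice. Between these groups 0.449% of all probes passed in either direction, and 4 of 6 squamous markers were lower in microRNA mice. In tumors their mean level was -3.72 to -3.66 in microRNA mice and -4.38 to -3.33 in control mice. Skeletal muscle markers had mean levels of -2.60 and -2.52 in normal tissue of microRNA mice, against -0.55 and 0.12 in normal tissue of control mice, and 2 of 6 were lower. Between tumors and normal tissue, 18.5% of all probes passed in either direction in control mice and 2.37% in microRNA mice. Of the markers, 5 of 6 squamous and 6 of 6 skeletal muscle were lower in tumors of control mice. In microRNA mice 0 of 6 squamous markers were lower and 1 was higher, and 1 of 6 skeletal muscle markers was lower. The part of this tissue in the member differences of control mice and of normal tissue was not tested.

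By correlation over the 13 arrays, probes of other genes ran closely alongside the members. The 13 points share their tissue, treatment and slide. For Ccnd1 they were Mastl (r = 0.974), Nup155 (0.970) and Blm (0.968). For Cdk2 they were Prmt5 (0.940), Xpo5 (0.928) and Pa2g4 (0.920), for Rbl2 Nipa2 (0.952), Ubl3 (0.934) and Sox15 (0.926), and for Cdkn1a A_51_P363947 Elmod3 (0.932), Mpnd (0.931) and Tmem134 (0.927). The Rhoc probe A_55_P1979684 was most like Atp5e (0.960), Btg1 (0.957) and Use1 (0.955). These are the highest among all tested probes of other genes with a RefSeq symbol and are given as a description, with no test.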

How the data were processed

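Per the labels' protocols, 35 ng of total RNA per sample was primed with oligo-dT, labelled with Cy3 and hybridised to a 1-colour mouse array. Per the file headers, Agilent's Feature Extraction (10.7.3.1) read the images; the deposited intensity values are linear, background-subtracted and not scaled between arrays. Probe coordinates are those of the files, on mm9. A label assigns each array to its group.

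Control spots (3671) and spots marked as outliers were left out, and spots of a probe were averaged (59305 spots, 55681 probes). The log2 intensity was reduced by the log2 of the array's 75th percentile. Probes well above background on at least 2 of 13 arrays were tested with limma 3.58.1 in R 4.3.3 on all 13 arrays, with tissue and treatment as terms or with 4 group means. P-values were adjusted over 35179 probes and called under 0.05. Alternatives were normexp with an offset of 50, quantile and median scaling, the deposited table without scaling, other filters, trend and robust estimation, the compared groups alone, slide, replicate and file number as blocks, each slide alone, and leaving out arrays. Raw mean and background intensity, also deposited per array, served the normexp alternative only. A lower bound sets the bright group's mean against, per array, the higher of the dimmest signal well above background and the probe's own. It does not cover the spread between samples. The procedure was tested on simulated data. All member probes are described; each list names up to 3 genes by smallest p, and up to 3 probes most alike are kept per member. Members, lists and alternatives were chosen with earlier results of these data known. Figures used Python 3.11.15 and matplotlib 3.10.9. The number of arrays limits the precision.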

Additional observations from a re-analysis of the deposited data

How the results depend on the processing

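The count of member probes called over both treatments (6 of 14) was 5 to 7 with quantile normalization, other filters, trend and robust estimation, and with slide or file number as a block, not always of the same probes. It was 5 without scaling, where Cdk2, Ccnd1, Ccnd2, Akt1 and Nr2f2 passed. It was 10 with normexp, 3 with median scaling, 0 on slide 1 alone, 2 on slide 2 alone, 0 with the replicate block, 3 without control normal 2 and control tumor 3 together, and 3 to 7 without each array in turn, lowest without control normal 2. In microRNA mice (1 called) it was 2 with normexp and 0 with quantile normalization, median scaling, the compared groups alone, either slide alone and the replicate block, and 0 to 1 without each array. In control mice (1 called) it was 4 with normexp, 3 with quantile normalization, 5 without scaling, 2 with trend and robust estimation, and 0 with slide blocks, on slide 2 alone, with the replicate block and without control normal 2 and control tumor 3 together. Without each array it was 0 to 5: 0 without either control normal, 5 without control tumor 3, 3 without control tumor 1 and 2 without control tumor 5. The counts for the microRNA effects and for the difference between the tumor effects were 0 in all alternatives.

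Without scaling between arrays the median of all probes moved to 0.91 over both treatments and 1.00 in control mice. Over both treatments Rbl2 (0.01), Rhoc A_51_P282508 (0.23) and A_55_P1979684 (0.13), Tob2 (0.37), Nr2f2 (0.94), Lats2 A_52_P315345 (0.55) and A_55_P2002351 (0.44) and Cdkn1a A_55_P1986282 (0.93) turned positive. In control mice so did Ccnd2 (0.99), Cdkn1a A_51_P363947 (0.32) and A_55_P1986282 (1.00), both Rhoc probes (0.34 and 0.23), both Lats2 probes (0.46 and 0.87), Nr2f2 (0.91) and Tob2 (0.58). In microRNA mice Rbl2 (0.18), Tob2 (0.05), Rhoc A_51_P282508 (0.05), Lats2 A_52_P315345 (0.68) and Cdkn1a A_55_P1986282 (0.83) did. Values relative to the median of all probes do not change with median scaling or without scaling, by construction. With normexp and quantile normalization, relative values of the 6 called probes were 1.23 and 0.92 for Ccnd1, -0.60 and -0.92 for Cdkn1a A_51_P363947, -0.52 and -1.03 for Rbl2, -0.29 and -0.35 for Rhoc A_51_P282508, -0.51 and -0.64 for A_55_P1979684, and -0.19 and -0.64 for Tob2.

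Over all probes, calls over both treatments numbered 10488, against 17466 with normexp, 21288 without scaling, 19548 without a filter, 23 within slide 1, 5991 within slide 2, 3474 with the replicate block, 5907 and 4983 without control normal 1 and 2, and 5460 without control normal 2 and control tumor 3. In microRNA mice they numbered 833, against 2971, 3718 and 1949 with the first 3 of these, 1815 with slide blocks and 2823 with file number blocks, 23 and 0 on slides 1 and 2 alone, and 94 to 1354 without each array. In control mice they numbered 6498, against 12373 with normexp, 17477 without scaling, 2764 with slide blocks, 2792 on slide 2 alone, 410 with the replicate block, 1561 without both named arrays, and 546, 894, 4216 and 3955 without control normal 1 and 2 and control tumor 4 and 7. The microRNA effect in normal tissue called 158, and 36 to 101 with normexp, the compared groups alone, slide 2 alone, the replicate block or without 1 of 3 normal arrays. The difference between the tumor effects called 90, 0 with the replicate block, and 18 to 58 with normexp, on slide 2 alone or without 1 of 5 arrays. In tumors the microRNA effect called 0, and at most 3 in any alternative.

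The labels state no pairing by replicate number, so the replicate block is given here only. As deviations from their group means, same-numbered samples correlated at 0.443 between both tissues of microRNA mice, and at -0.192 to 0.330 elsewhere. With 2 arrays in a group these deviations mirror each other, and in microRNA mice the replicate number goes with the slide and the file number. The correlations thus cannot show whether samples are paired. Slide 1 held no control normal tissue and gives no value for control mice. Causes of these changes were not tested. No control tumor passed Dixon's critical ratio; Ccnd2 in control tumor 5 came nearest at 0.566. Signals near background limit Cdkn1a A_55_P1976204 and A_55_P1986282 and Lats2 A_55_P2002351.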
